A study of Rattus norvegicus with 7 samples.

Results

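The genes described here are 42 actins, tropomyosins, calponins, myosins and other genes of the contractile and filament apparatus, read on 7 Affymetrix rat expression arrays. A member is a probe set, the group of short probes that measures a transcript, whose only gene symbol in the platform annotation is on that list. By this rule 38 of the 42 genes were found, among 14217 gene symbols in all, and they have 72 of the array's 31099 probe sets. Actb, Cfl1, Myl6 and Tmsb10 were measured only by probe sets annotated to several genes and have no value of their own. Of the 72 probe sets, 63, from 35 genes, passed a filter that kept the upper 60% by mean signal and were tested. The other 9 were too dim and are described without a test.

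The arrays hold RNA of NRK-52E cells, an established epithelial line from rat kidney, and the study concerns Adamts16, a secreted metalloprotease. Cultures in 10% serum, seeded at 20% confluence, received an siRNA at 100 pmol per ml of medium by lipofection, and RNA was taken 48 h later. The groups are siRNA 3488 (2 arrays), siRNA 2600 (2 arrays), both directed at Adamts16, and a scrambled control (3 arrays); each array is an independent culture of the same line. There is no untransfected group, so every difference is against cells that received an siRNA with the same reagent. By the labels only the siRNA differs between the groups, and its antisense strand is the strand that pairs with transcripts. Array controls described below also differed with siRNA 3488, and their part was not tested. The antisense strands are printed because 9 of the 63 tested members differed between siRNA 3488 and siRNA 2600 in the test described below. Of all tested probe sets 6.01% did so, and the part of the strands in these differences was not tested. Bases 2 to 8, the seed, are in capitals, and the 2 overhanging bases are left out.
siRNA 3488: tTTCCGGAgacgtacttct
siRNA 2600: tTGCGCACagaaatatagg
scrambled control: aTTACCGAgcacattggagg
The seeds of the 3 strands differ from each other.

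Actin filaments are built from actin monomers and carry tropomyosin along their length, which sets which myosins and other proteins may bind. Calponins, transgelins and caldesmon also lie on the filament, and non-muscle myosin pulls on it. Many of these genes are read out by serum response factor and its partners, which sense the pool of free actin, and in kidney tubule cells they are followed when epithelial cells take on features of mesenchymal cells.

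Array medians ran from 126 to 139 in arbitrary signal units, and every pair of arrays correlated at 0.940 to 0.957 across probe sets. On the first principal component of the tested probe sets (39.2% of the variance), the controls lay at 11.4 to 20.1 and the siRNA 3488 arrays at -22.3 and -37.2, while siRNA 2600 replicate 1 (17.7) fell within the range of the controls and its replicate 2 (-6.72) outside it. The Adamts16 probe set was dim: the siRNA 3488 arrays read 12.1 and 40.4, the siRNA 2600 arrays 21.4 and 2.42, and the controls 8.68, 7.18 and 18.9. Both siRNAs against the control gave a log2 change of 0.25 (95% confidence interval -1.78 to 2.29; exact two-sided permutation p = 0.857, where 35 splits allow no p under 0.0571), so these arrays do not show whether the target fell. Of 13 markers of kidney tubule epithelium only Krt8, Krt19, Ocln and Tjp1 were above the filter; Cdh1 (1.95 to 9.67 over the 7 arrays), Epcam and Krt18 were near the bottom of the scale. Most of the summed signal of the 12 fibroblast markers was Col3a1. The sum was 36859 to 40714 with siRNA 3488, 30140 to 31975 with siRNA 2600 and 29452 to 30192 in the controls. With siRNA 3488, 3 of them were called higher, Col1a1, Col3a1 and Fn1, at log2 changes of 0.44, 0.44 and 0.49. The change of Col3a1 was no larger than the median of the brightest 125 tested probe sets (0.46). Col1a1 and Fn1 were dimmer, and changed by more than the medians of tested probe sets about as bright (0.03 to 0.09). The other tested markers, Col1a2 (0.30), Pdgfrb (0.08) and Postn (-0.13), were not called. Most of the summed signal of 15 striated muscle markers was Myh1. That sum was 5380 to 6197 with siRNA 3488, 3490 to 4602 with siRNA 2600 and 3514 to 3884 in the controls. Tnnc1 and Myh1 were called higher with siRNA 3488, where Myh1 read 3905 and 4482, against 2219, 2305 and 2680 in the controls. The other tested markers of this list changed by -0.18 to 0.65 and were not called. Col1a1, Col3a1, Fn1, Tnnc1 and Myh1 are named because they were called, and the part of both lists in the results below was not tested. In such bulk samples, fewer cells of a kind and less RNA per cell cannot be told apart.

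With siRNA 3488, 12 of the 63 tested members were called higher than in the control and 0 lower. Of all 18625 tested probe sets, 15.6% were called, 6.89% higher and 8.74% lower. The 12 were Cnn2, Tpm3, Tpm2, Tagln2, Vim, Tpm1, Actg1, Arpc3, Rhob, Ezr, Myh10 and Cnn3, in order of log2 change. Calls are those of limma, with p-values adjusted by Benjamini-Hochberg over all tested probe sets and a threshold of 0.05. Where leaving out an array left 1 in a group, limma took the spread from the other groups, so the lone array is assumed to vary like them. The 63 members had a median log2 change of 0.10, with 45 above 0, against -0.06 and 41.3% above 0 for all tested probe sets. Arrays of the 2 groups did not overlap in 38 members, 29 higher and 9 lower; over all probe sets 19.2% were higher and 31.1% lower without overlap.

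These counts depend on brightness. Bright probe sets of any kind rose with siRNA 3488: of 972 other probe sets with a mean log2 signal of 12 or more (a signal of 4096), 55.2% were called higher, with a median log2 change of 0.25. Of the 20 members that bright, 8 (40%) were called higher, with a median of 0.18. Among dimmer probe sets, 4 of 43 members (9.30%) and 4.17% of 17590 others were called higher, with medians of 0.03 and -0.08. When each member was set beside the 500 tested probe sets nearest to it in signal, 37 of the 63 lay above the median change of those neighbours. Over all 63, the median difference from the neighbours was 0.02. As a group, then, the members lay close to other probe sets of their own signal. The 18 hybridisation control probe sets, which do not read transcripts of the cells, had a median log2 difference of 0.52 with siRNA 3488. With siRNA 2600 it was 0.03. Their part in the rise of bright probe sets was not tested. Where a scaling removed the rise of bright probe sets, fewer members were called, as were fewer probe sets of all kinds: 5 higher and 1 lower after quantile normalization (9.87% of all probe sets called), and 7 higher and 0 lower after cyclic loess (10.5%). The split of all calls moved too, from 1283 higher and 1628 lower to 1728 higher and 576 lower when each array was centred on its median, where 14 members were higher and 0 lower.

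**Figure D1:**
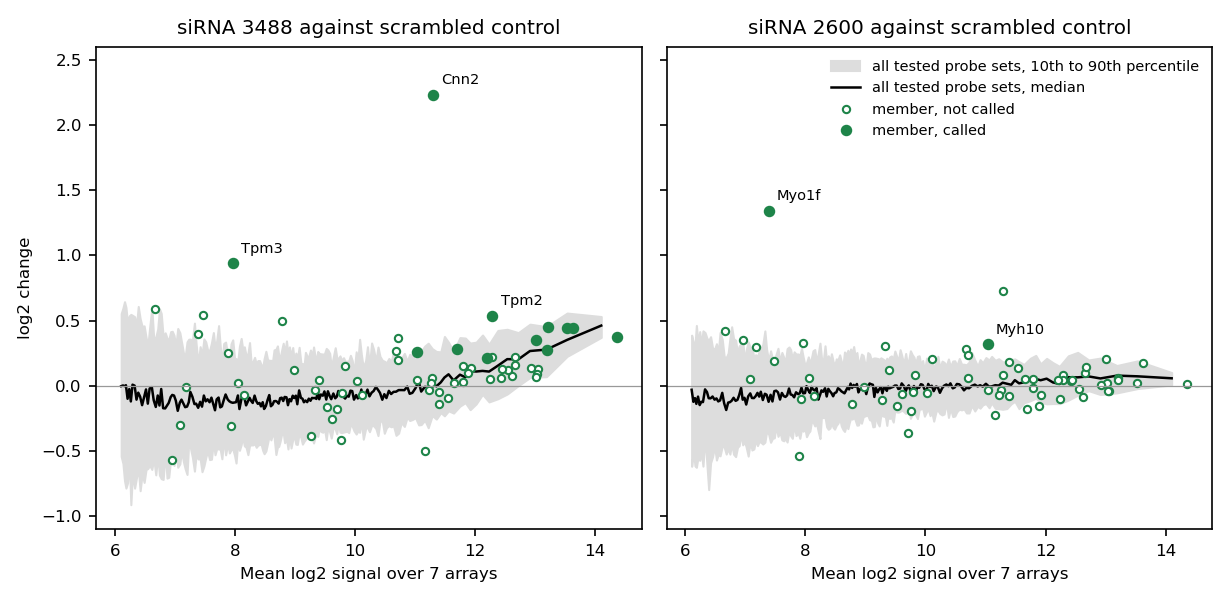
Log2 change (vertical) of each tested member against its mean log2 signal over the 7 arrays (horizontal), for siRNA 3488 (left) and siRNA 2600 (right) against the scrambled control; filled points are called members, and the line and grey band give the median and the range from the 10th to the 90th percentile of all tested probe sets in bins of 100 neighbouring signals or slightly more. On the left the line climbs at the bright end, where most called members lie inside the band. Cnn2 (2.23), Tpm3 (0.94), Tpm2 (0.54) and, narrowly, Myh10 stand above the band. On the right the line stays near 0, with Myo1f (1.34) and Myh10 (0.32) called.

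Of the actins, Actg1, the cytoplasmic gamma-actin of every cell, was the brightest. Its probe set 1371327_a_at read 23252 and 27249.6 with siRNA 3488, 18542 and 20875 with siRNA 2600, against 18788, 19757 and 19847 in the controls. Both siRNA 3488 arrays were above the other 5. The log2 change was 0.37 ± 0.08 (SE; adjusted p = 0.0154), and the 500 neighbours in signal had a median of 0.35, so 55.8% of them changed by less. The change was -0.093 after quantile normalization and 0.02 after cyclic loess, neither of them called. It was also not called without siRNA 3488 replicate 2 (0.26, adjusted p = 0.102), control replicate 1 (0.35, 0.0646) or control replicate 2 (0.38, 0.0508); over 18 alternatives its adjusted p ran from 0.00285 to 0.81. The dimmer Actg1 probe set changed by 0.12.

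Beta-actin itself could be read only on control probe sets. The 3 that the array carries for its 3′ end, middle and 5′ end were higher by 0.40, 0.31 and 0.25 on the log2 scale with siRNA 3488 as deposited, but by -0.06, -0.13 and -0.11 after quantile normalization, 0.049, 0.0056 and -0.0041 after cyclic loess, and 0.50, 0.42 and 0.36 after median centring. With siRNA 2600 they differed from the control by -0.01, -0.01 and -0.05. Dividing the signal of the 3′ end by that of the 5′ end, a sign of RNA quality and labelling, gave 1.96 and 1.94 with siRNA 3488, 1.83 and 1.81 with siRNA 2600, against 1.74, 1.76 and 1.79 in the controls. It was thus highest in the siRNA 3488 cultures, and its part in the member results was not tested.

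The smooth muscle actins gave no call. Acta2, the alpha-actin of smooth muscle and myofibroblasts, read 938 and 994 with siRNA 3488, 957 and 890.0 with siRNA 2600, against 839.7, 910.2 and 859 in the controls. Both siRNA 3488 arrays were above the controls, at a log2 change of 0.15 ± 0.08 (adjusted p = 0.224; interval -0.03 to 0.33). Actg2, the gamma-actin of enteric smooth muscle, was below the filter on average, at signals of 21.9 to 39.5 over the 7 arrays.

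The 4 tropomyosin genes had 23 probe sets, of which 21 were tested; 3 were called higher with siRNA 3488 and 0 lower, with a median of 0.04. Tpm2, encoding beta-tropomyosin, had the lowest adjusted p of all members. It read 6217 and 6646 with siRNA 3488, 4765 and 4593 with siRNA 2600, against 4257, 4570.4 and 4458 in the controls. Both siRNA 3488 arrays stood well above all others. The log2 change was 0.54 ± 0.06 (1.45-fold; adjusted p = 0.00193) against 0.13 for its neighbours, 95.8% of which changed by less. It was called under all 18 alternatives, at log2 changes of 0.38 (quantile normalization) to 0.63 (median centring).

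Tpm1, encoding alpha-tropomyosin, gave different answers on different probe sets. The brightest, 1370287_a_at, read 14059.8 and 15282 with siRNA 3488, 10916 and 10989 with siRNA 2600, against 10381, 10872 and 11063 in the controls. Again only siRNA 3488 stood apart, by 0.44 ± 0.06 (adjusted p = 0.00359), with neighbours at 0.34; after quantile normalization the change was 0.06 and not called (adjusted p = 0.419, in a range of 0.0014 to 0.419 over 18 alternatives). The other 5 tested Tpm1 probe sets changed by 0.08, -0.50, -0.07, 0.04 and 0.02, with none called. The -0.50 belongs to 1395794_at, whose siRNA 3488 arrays read 2553 and 1371 and whose controls read 3235, 2665 and 2150.0, so the groups overlap. Tpm1 transcripts are spliced into many forms, and which of them each probe set reads is not given in the files.

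Tpm3, which encodes tropomyosins of non-muscle cells and slow muscle, had 12 probe sets that did not move together. The brightest, 1370339_at, read 5587 and 5708 with siRNA 3488, 5667 and 5431 with siRNA 2600, against 5576, 5335 and 5327 in the controls, and changed by 0.06 ± 0.06. The dimmer 1389846_at read 348 and 398 with siRNA 3488, 184 and 324 with siRNA 2600, against 177, 164 and 254 in the controls. This was the only Tpm3 probe set called with siRNA 3488, at 0.94 ± 0.25 (1.92-fold; adjusted p = 0.0326), above 99.6% of its neighbours. It was not called without siRNA 3488 replicate 1 (1.04, adjusted p = 0.0763) or 2 (0.84, 0.19), or without control replicate 1 (0.87, 0.108) or 2 (0.81, 0.1); over 16 alternatives its adjusted p ran from 0.0111 to 0.19. Another, 1370450_at, went the other way, with 89.2 and 85.3 against 126, 139 and 124 in the controls, a log2 change of -0.57 (adjusted p = 0.0934).

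Tpm4, another non-muscle tropomyosin, stayed within the spread. Its brighter probe set, 1371653_at, read 8200.5 and 8953 with siRNA 3488, 8493 and 8066 with siRNA 2600, against 8099, 8342 and 8047 in the controls. The change was 0.07 ± 0.06 (adjusted p = 0.476), while its neighbours had 0.26 as their median; with quantile normalization it was -0.20 and called lower (adjusted p = 0.0353, in the direction opposite to the deposited scaling). The other probe set changed by 0.05.

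**Figure D2:**
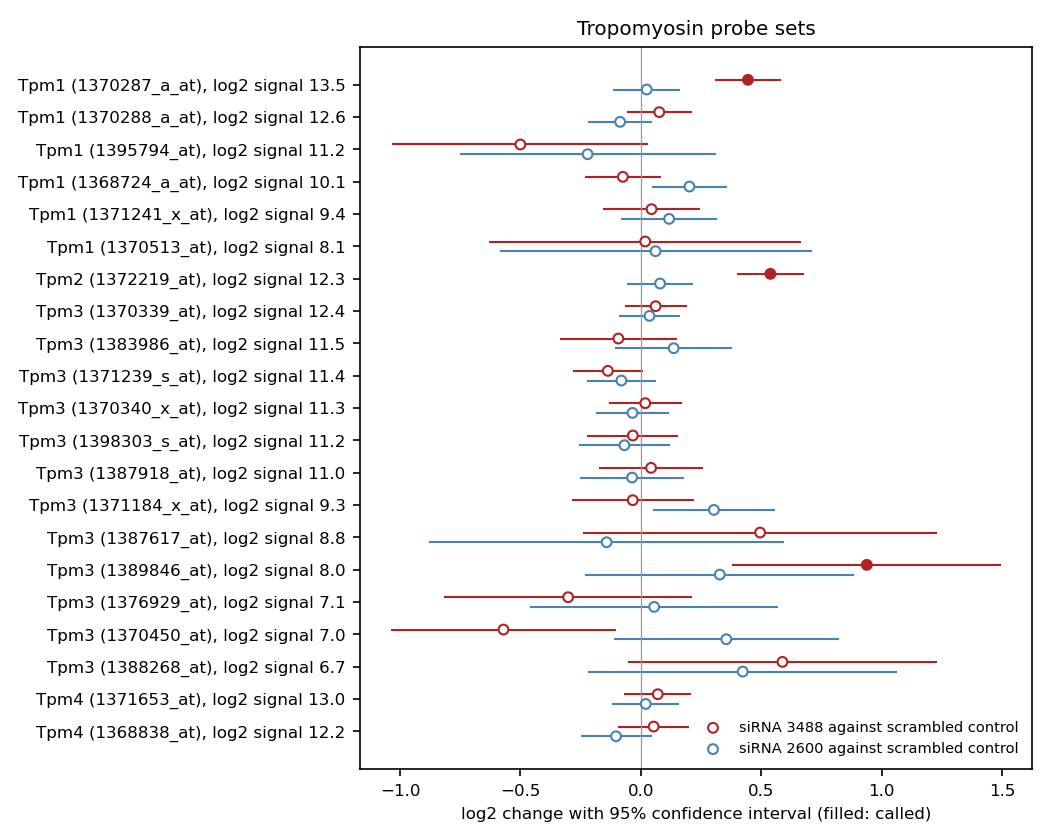
Log2 change with its 95% confidence interval for the 21 tested tropomyosin probe sets, siRNA 3488 (red) and siRNA 2600 (blue) against the scrambled control, ordered within each gene by mean log2 signal; filled points are called. The 3 filled points are Tpm1 1370287_a_at (0.44), Tpm2 (0.54) and Tpm3 1389846_at (0.94) with siRNA 3488, and other probe sets of Tpm1 and Tpm3 lie on both sides of 0.

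Of the genes that bind along the filament beside tropomyosin, 6 probe sets were tested and 3 were called higher with siRNA 3488, at a median of 0.32. Cnn2, a calponin of non-muscle cells, had the largest change of any member. It read 5826 and 7374 with siRNA 3488, 1087 and 4919 with siRNA 2600, against 1205, 1029 and 2189 in the controls. Both siRNA 3488 arrays were above all others, the siRNA 2600 arrays lay far apart from each other, and control replicate 3 was the highest control. The log2 change with siRNA 3488 was 2.23 ± 0.50 (4.70-fold, interval 1.11 to 3.35 in log2; adjusted p = 0.0168), above all 500 neighbours, whose median was 0.01. It was 2.11 after quantile normalization and 2.18 after cyclic loess, both called. The spread kept it near the threshold: it was not called without siRNA 3488 replicate 1 (2.40, adjusted p = 0.0515) or 2 (2.06, 0.129), or without control replicate 1 (2.13, 0.0656) or 2 (2.01, 0.0574), and over 18 alternatives its adjusted p ran from 0.00125 to 0.129.

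Tagln2, a transgelin of non-muscle cells, read 11049.5 and 12516 with siRNA 3488, 8629.7 and 9132 with siRNA 2600, against 8199.7, 8854 and 8748 in the controls. It rose by 0.45 ± 0.07 (1.37-fold; adjusted p = 0.00529) against 0.29 for its neighbours, and by 0.14 after quantile normalization, still called. Cnn3, the acidic calponin, read 5031 and 5348 with siRNA 3488, 4576 and 4659 with siRNA 2600, against 4476, 4469 and 4497 in the controls. It was higher by 0.21 ± 0.06 (adjusted p = 0.0343), with neighbours at 0.12. Cnn3 was not called without siRNA 3488 replicate 2 (0.17, adjusted p = 0.175) or without control replicate 1 (0.21, 0.106), 2 (0.21, 0.109) or 3 (0.21, 0.0882), nor after quantile normalization (0.08) or cyclic loess (0.08), with an adjusted p of 0.0236 to 0.308 over 18 alternatives.

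The smooth muscle members of the same families were not called. Tagln, the transgelin known as SM22, read 1592 and 1974 with siRNA 3488, 2131 and 1503 with siRNA 2600, against 1476, 1578 and 1367 in the controls, a log2 change of 0.27 ± 0.14 with siRNA 3488 (adjusted p = 0.22). Cnn1, the calponin of smooth muscle, was below the filter, at signals of 24.7 to 82.7. Cald1, caldesmon, had 2 tested probe sets, with changes of 0.12 (adjusted p = 0.169) and 0.37 (0.112).

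Promoter sequence was examined for the CArG box, the element bound by serum response factor, since many of these genes are known to respond to it. Windows from 250 bases before to 50 after the start were taken from RefSeq (build GRCr8) for 37 of the 42 genes, 41 windows in all, and both strands were read. The box was found in 2 of them, those of Cnn2 and Actg1, and in 1.64% of all 33469 rat windows. The stretches are shown because Cnn2 is the member with the largest change, with the box in capitals.
Cnn2, chr7:10370364-10370393, minus strand: cgcttccacgCCTTATAAGGgcatttgccc
Actg1, chr10:106121022-106121051, minus strand: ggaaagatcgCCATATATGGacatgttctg
The Cnn2 box lies 71 to 62 bases before the start and the Actg1 box 90 to 81 bases before it. The match describes these letters only, and other windows may hold related elements or have them outside the window.

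Of 5 tested probe sets for myosins and the myosin kinase, Myh10 was called higher with siRNA 3488. Myh10 encodes the heavy chain of non-muscle myosin IIB. It read 2263 and 2211 with siRNA 3488, 2349 and 2318 with siRNA 2600, against 1909, 1878 and 1817 in the controls. All 4 arrays with an siRNA against Adamts16 were above all 3 controls, and the replicates lay close together. The change was 0.26 ± 0.06 with siRNA 3488 (adjusted p = 0.02) and 0.32 ± 0.06 with siRNA 2600 (adjusted p = 0.0411), above 90.2% and 96.4% of the neighbours. With siRNA 3488 it was not called without siRNA 3488 replicate 1 (0.24, adjusted p = 0.0687) or 2 (0.28, 0.0848) or without control replicate 1 (0.28, 0.0593), 2 (0.26, 0.0673) or 3 (0.24, 0.067), with an adjusted p of 0.0126 to 0.0848 over 18 alternatives.

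Myh9, the heavy chain of non-muscle myosin IIA, read 3990.2 and 3598 with siRNA 3488, 3681 and 3408 with siRNA 2600, against 3335, 3604 and 3313 in the controls, and the groups overlapped (0.15 ± 0.07, adjusted p = 0.183). Myl9, a regulatory light chain typical of smooth muscle, was dim, at 119 and 156, 153 and 184, and 116, 136 and 162 in the same order, a change of -0.01 ± 0.22. Mylk, the kinase that phosphorylates the light chain, read 322 and 277 with siRNA 3488, 178 and 168 with siRNA 2600, against 256, 247 and 249 in the controls. The controls lay between the siRNAs, with changes of 0.25 (adjusted p = 0.243) and -0.54 (adjusted p = 0.109).

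The members of filament turnover gave no call against the control. None of the 7 tested probe sets of Pfn1, Pfn2, Cfl2, Capg and Gsn was called with siRNA 3488, and their changes ran from -0.39 to 0.20. These encode profilins, which feed monomers to the growing end, a cofilin and gelsolin, which cut filaments, and a capping protein. The lowest adjusted p, 0.0528, belonged to the dimmer Pfn2 probe set at -0.39, while the brighter Pfn2 probe set changed by 0.20. Of the Arp2/3 complex, which starts branches on existing filaments, 5 probe sets of Arpc1b, Arpc2, Arpc3 and Arpc5 were tested and Arpc3 was called.

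Arpc3 read 8884 and 9976 with siRNA 3488, 8265 and 8776 with siRNA 2600, against 7187, 7673 and 7319.7 in the controls. All 4 arrays with an siRNA against Adamts16 were above the controls, by 0.35 ± 0.07 with siRNA 3488 (adjusted p = 0.0106; neighbours 0.26) and 0.20 with siRNA 2600 (adjusted p = 0.198). The siRNA 3488 change was not called after quantile normalization (0.05) or cyclic loess (0.14), or without siRNA 3488 replicate 2 (0.27, adjusted p = 0.0777) or control replicate 1 (0.33, 0.0503), with an adjusted p of 0.00496 to 0.424 over 18 alternatives. The other 4 probe sets of the complex changed by 0.09 to 0.22, with adjusted p of 0.0976 or more.

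Ezr encodes ezrin, which ties filaments to the membrane of epithelial microvilli. It read 10363 and 10941 with siRNA 3488, 8919.6 and 9464 with siRNA 2600, against 8588, 8794 and 9101 in the controls. It was higher by 0.27 ± 0.06 (adjusted p = 0.0168), no more than its neighbours (0.29), and the change was -0.021 after quantile normalization and 0.04 after cyclic loess. It was also not called without siRNA 3488 replicate 2 (0.23, adjusted p = 0.0968), control replicate 1 (0.25, 0.0707) or control replicate 2 (0.27, 0.0671), with an adjusted p of 0.00829 to 0.742 over 18 alternatives. Its relative Msn, moesin, changed by 0.02 and -0.17 on 2 probe sets, with no call.

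Rhob, a small GTPase that is induced early by growth factors and stress, moved in opposite directions from the control in the siRNA cultures. It read 4311 and 3595 with siRNA 3488, 2922 and 2799 with siRNA 2600, against 3355, 3073 and 3289.5 in the controls. None of the 3 groups overlapped. The log2 change was 0.28 ± 0.08 with siRNA 3488 (adjusted p = 0.0439; neighbours 0.07), and -0.18 with siRNA 2600, which was not called (adjusted p = 0.343). The call with siRNA 3488 was lost without siRNA 3488 replicate 1 (0.15, adjusted p = 0.237), control replicate 1 (0.31, 0.0902), 2 (0.24, 0.141) or 3 (0.29, 0.0881), and after quantile normalization (0.18) or cyclic loess (0.20), with an adjusted p of 0.0195 to 0.237 over 18 alternatives.

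Rhoa, the GTPase that drives stress fibre assembly, read 6093 and 5704 with siRNA 3488, 5427 and 5698 with siRNA 2600, against 5455, 5204 and 5482 in the controls on its brighter probe set, a change of 0.13 (adjusted p = 0.169) that was -0.05 after quantile normalization and -0.02 after cyclic loess. The second Rhoa probe set changed by 0.03. The kinases Rock1 and Rock2 had 5 tested probe sets with none called. The largest difference among them was -0.42 for Rock2 1372371_at (adjusted p = 0.0627), with 827 and 652 against 997, 957 and 983 in the controls.

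Vim, the intermediate filament protein vimentin of mesenchymal cells, was bright in every culture. It read 14069 and 16388 with siRNA 3488, 12371 and 12810.1 with siRNA 2600, against 10947, 11322 and 11178 in the controls. Each group stood apart, with siRNA 3488 highest and the control lowest. The change was 0.45 ± 0.07 with siRNA 3488 (adjusted p = 0.00563; neighbours 0.35), and 0.07 (adjusted p = 0.237) after quantile normalization, in a range of 0.00243 to 0.237 over 18 alternatives. With siRNA 2600 it was 0.18 (adjusted p = 0.28).

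The remaining members of that group gave no call. Des, desmin of muscle cells, was dim and higher in both siRNA 3488 arrays (209 and 240.2) than in the controls (169, 177 and 122), at 0.54 (adjusted p = 0.0889). S100a4, a calcium-binding protein often used as a fibroblast marker, changed by 0.22 (adjusted p = 0.133) with overlapping groups. Lmna, the A-type lamin of the nucleus, changed by 0.06 and 0.04. Cdh2, N-cadherin, had 3 probe sets, all below the filter and at signals of at most 66.3.

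**Figure D3:**
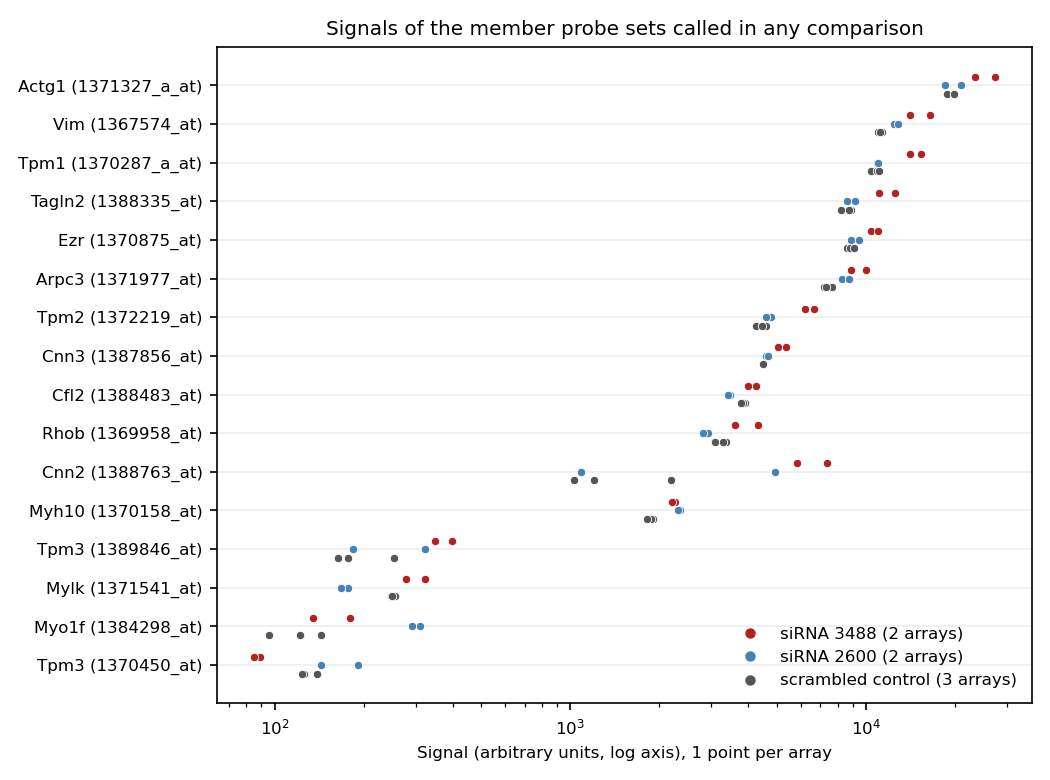
Signal in arbitrary units on a log axis for the 16 member probe sets called in any comparison, 1 point per array, with siRNA 3488 in red, siRNA 2600 in blue and the scrambled control in grey. The red points lie to the right of the grey points for the 12 probe sets called with siRNA 3488, the blue points of Cnn2 lie apart at 1087 and 4919, and the blue points of Myo1f (311 and 292) lie to the right of all its others; levels of different probe sets cannot be compared.

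With siRNA 2600, 2 of the 63 members were called higher and 0 lower, against 0.548% and 0.483% of all tested probe sets. They were Myh10, given above, and Myo1f, a single-headed myosin best known from immune cells. Myo1f read 181 and 135 with siRNA 3488, 311 and 292 with siRNA 2600, against 121, 144 and 96.0 in the controls. Only the siRNA 2600 arrays stood apart. The log2 change was 1.34 ± 0.22 (2.54-fold; adjusted p = 0.0238), above 99.6% of its neighbours. Of 9 immune cell markers, Ptprc (2.03 to 10.4 over the 7 arrays), Cd53, Laptm5, Cd74, Tyrobp and Coro1a were below the filter. Of the 9, 0 were called with siRNA 2600. Cd68 was called higher with siRNA 3488 (365 and 363, against 208, 236 and 246 in the controls). The sum of all 9 was 6553 to 6634 with siRNA 2600, 6353 to 6651 with siRNA 3488 and 6090 to 6584 in the controls. Most of it was Cd14 (5688 to 6258 over the 7 arrays), so it says little about the other markers.

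Both calls with siRNA 2600 were lost when single arrays were left out, at changes of similar size. Myo1f was not called without siRNA 2600 replicate 1 (1.30, adjusted p = 0.0657) or 2 (1.39, 0.0763) or without control replicate 1 (1.36, 0.0861), 2 (1.48, 0.0533) or 3 (1.19, 0.0777). Myh10 was not called when any of the 7 arrays was left out, at changes of 0.30 to 0.34 and adjusted p of 0.0525 to 0.174. Over all alternatives the adjusted p ran from 0.0101 to 0.0989 for Myo1f and 0.0284 to 0.174 for Myh10. The members' median log2 change was 0.04, against -0.02 for all tested probe sets, and 30 of 63 lay above the median of their neighbours. Groups did not overlap for 13 members higher and 8 lower, where 14.4% and 19.6% of all probe sets did so.

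Cnn2 was not called with siRNA 2600 (0.73 ± 0.50, adjusted p = 0.542), and its value there rests on which array is used. Without siRNA 2600 replicate 1, the array that lay among the controls on the first component, the change was 1.82 (adjusted p = 0.0349), and without replicate 2 it was -0.36 (adjusted p = 0.678); each value rests on 1 siRNA 2600 array, with the spread taken from the other groups. In Tpm3 1389846_at replicate 1 was likewise the lower of the siRNA 2600 arrays, at 184, with replicate 2 at 324.

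The direct comparison of the siRNAs called 7 members higher with siRNA 3488 and 2 lower, against 2.84% and 3.17% of all tested probe sets. Tpm2 (0.46 ± 0.07, adjusted p = 0.0104), Tpm1 1370287_a_at (0.42, 0.0134), Tagln2 (0.41, 0.0207), Actg1 (0.36, 0.0465) and Rhob (0.46, 0.0219) were among those called against the control too. Mylk differed by 0.79 ± 0.15 (1.73-fold; adjusted p = 0.0207), the largest difference of the 7, above 99% of its neighbours. Cfl2, a cofilin best known from muscle, read 4235 and 3972 with siRNA 3488, 3451 and 3419.8 with siRNA 2600, against 3888, 3825 and 3760.2 in the controls. Its 3 groups did not overlap and the siRNAs differed by 0.26 ± 0.06 (adjusted p = 0.0467).

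The 2 members lower with siRNA 3488 than with siRNA 2600 were Myo1f (-0.95 ± 0.24, adjusted p = 0.0449) and Tpm3 1370450_at. The latter read 89.2 and 85.3 with siRNA 3488 and 191 and 144 with siRNA 2600, a difference of -0.93 ± 0.23 (adjusted p = 0.0449). Cnn2 differed by 1.5 ± 0.55 and was not called (adjusted p = 0.134). The count of 9 (6.01% of all probe sets called) moved with the arrays used, as did the share of all probe sets: 1 member was called without siRNA 3488 replicate 2 (0.510% of all), 1 without siRNA 2600 replicate 1 (0.574%), 5 without control replicate 1 (2.38%), 4 without control replicate 2 (1.97%), and 6 without siRNA 3488 replicate 1 (5.84%) or control replicate 3 (2.78%). It was 10 without siRNA 2600 replicate 2 (8.39%), and 0 when only the 4 siRNA arrays were fitted (0.156%). Groups did not overlap for 24 members higher and 10 lower, where 21.9% and 27.7% of all probe sets did so, and 33 of 63 members lay above the median of their neighbours.

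Both siRNAs as 1 group against the control called 0 of the 63 members in limma, where 0.145% of all tested probe sets were called (0.102% higher, 0.0430% lower); 12 members had an unadjusted p under 0.05, as had 3310 of the 18625 probe sets. The lowest adjusted p was that of Myh10 (0.29 ± 0.06, adjusted p = 0.0837), in which all 4 arrays exceeded the controls. Arrays did not overlap for 8 members higher and 2 lower (6.66% and 11.0% of all probe sets), among them Vim (0.31, adjusted p = 0.169) and Arpc3 (0.28, 0.145). Cnn2, at 1.48, and Myo1f, at 0.87, overlapped with the controls. When the effect of each siRNA was averaged in the fit of 3 groups, which leaves the difference between the siRNAs out of the spread, 7 members were called higher and 0 lower (7.40% of all probe sets called). Without siRNA 2600 replicate 1, 4 were higher and 1 lower (1304 of all 18625 probe sets called).

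Array by array, the 12 members called with siRNA 3488 had median differences from the control mean of 0.35 and 0.50 with siRNA 3488, 0.02 and 0.10 with siRNA 2600, against -0.05, 0.01 and 0.02 in the controls. Since siRNA 3488 chose these 12, its own values are a description only. The controls that set the mean are shared by both siRNA comparisons. Of the 12, 4 lay above the median of their neighbours in siRNA 2600 replicate 1 and 8 in replicate 2, against 8, 4 and 8 in the controls.

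**Figure D4:**
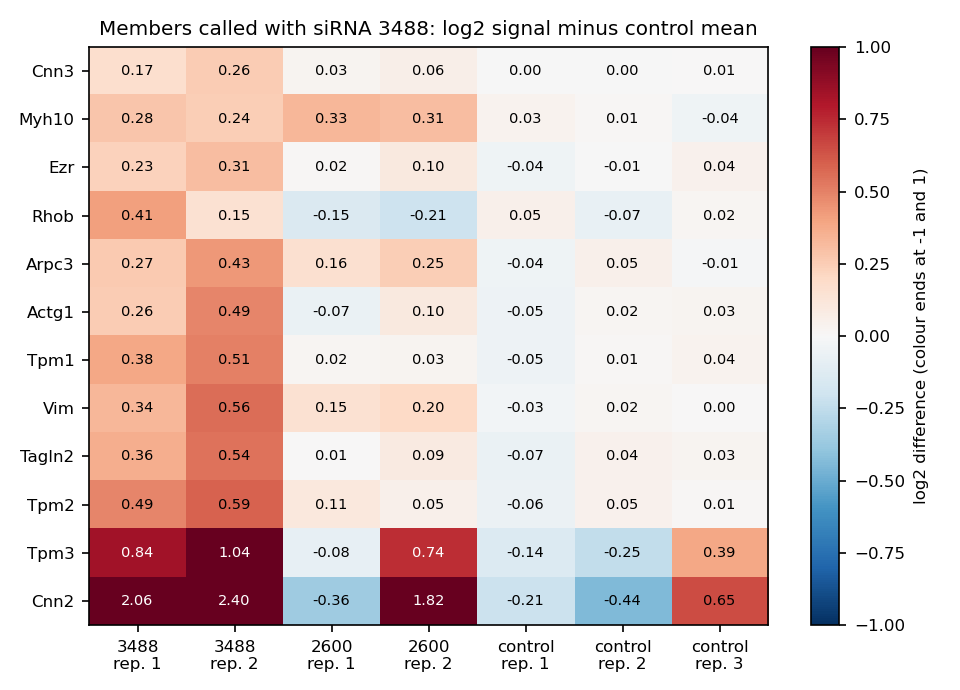
Log2 signal minus the mean of the 3 control arrays for the 12 members called with siRNA 3488 (rows, 1 probe set each), in each of the 7 arrays (columns); red is higher, blue lower, and the colour ends at -1 and 1. The siRNA 3488 columns are red throughout (0.15 to 2.40), Myh10 is as red with siRNA 2600, and Cnn2 and Tpm3 turn from -0.36 and -0.08 in siRNA 2600 replicate 1 to 1.82 and 0.74 in replicate 2.

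Probe sets annotated to several genes, at least 1 of them a member, are counted apart because their signal cannot be assigned. Of 11 such probe sets 8 were tested; 5 were higher and 0 lower with siRNA 3488, and 0 were called with siRNA 2600. Those 5 are the 5 with a mean log2 signal of 12 or more, where 55.2% of other probe sets were called higher. They include those annotated to beta-actin together with gamma-actin, to cofilin 1, to Myl6 and to thymosin beta-10, each with a second gene or copy.

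A wider list of 124 actin cytoskeleton genes that are not members was read in the same way, 1 probe set per gene; 110 were on the arrays and 100 were tested. With siRNA 3488, 18 rose, 9 fell and 73 were not called, and the median log2 change was 0.00. The 27% called stand beside 15.6% of all tested probe sets and 17.9% in a fit of the brightest probe set per gene. The share called also rose with signal, from 2% in the dimmest of the signal bins to 99.2% in the brightest. Of the 100, 51 lay above the median of their neighbours in signal. With siRNA 2600 limma called 0 of the 100, where 1.03% of all tested probe sets were called. The rising genes were bright, with a median log2 signal of 12.26, against 10.64 for the falling genes.

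The 4 rising genes with the lowest adjusted p were Tmsb4x, Ccn2, Myl12b and Ppp1cc. Tmsb4x, thymosin beta-4, which binds free actin monomers, read 13929.5 and 16846 with siRNA 3488, 10011 and 11766 with siRNA 2600, against 8347, 8879 and 9227 in the controls. It rose by 0.80 ± 0.10 (adjusted p = 0.00211) against 0.32 for its neighbours. Ccn2, a matricellular protein and serum response target, rose by 0.35 (adjusted p = 0.0069), equal to its neighbours. Myl12b, a light chain of non-muscle myosin, rose by 0.28 (adjusted p = 0.0106), and Ppp1cc, a catalytic subunit of protein phosphatase 1, by 0.33 (0.0118).

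The 4 falling genes with the lowest adjusted p were Ppp1r14a, Pkn2, Abi1 and Ppp1r12a. Ppp1r14a encodes CPI-17, an inhibitor of myosin phosphatase that marks smooth muscle. It read 507.5 and 547.6 with siRNA 3488, 627.5 and 699.9 with siRNA 2600, against 724, 909.5 and 879.7 in the controls, so no siRNA array reached the lowest control. The change with siRNA 3488 was -0.66 ± 0.11 (adjusted p = 0.00685) and with siRNA 2600 -0.33 (adjusted p = 0.205). Pkn2 fell by 0.51 on the log2 scale (adjusted p = 0.00706). Abi1, a subunit of the WAVE complex that activates Arp2/3, fell by 0.43 (adjusted p = 0.0135), and Ppp1r12a, the targeting subunit of myosin phosphatase, fell by 0.28 (adjusted p = 0.0169). Of the other 8 smooth muscle markers on the arrays, 4 were too dim to be tested and the rest were not called.

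By function, 4 of 15 myosins and regulators were higher and 3 lower, 4 of 13 serum response factor genes and targets were higher and 1 lower, 3 of 13 Arp2/3 genes and activators were higher and 1 lower, 3 of 16 genes of filament turnover were higher and 2 lower, and 2 of 4 partners of ezrin and its relatives were higher and 1 lower. None of 7 formins, which lengthen unbranched filaments, and none of 10 crosslinkers was called. Lists of this size were chosen for their function with earlier results of these arrays known, so the counts are a description.

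**Figure D5:**
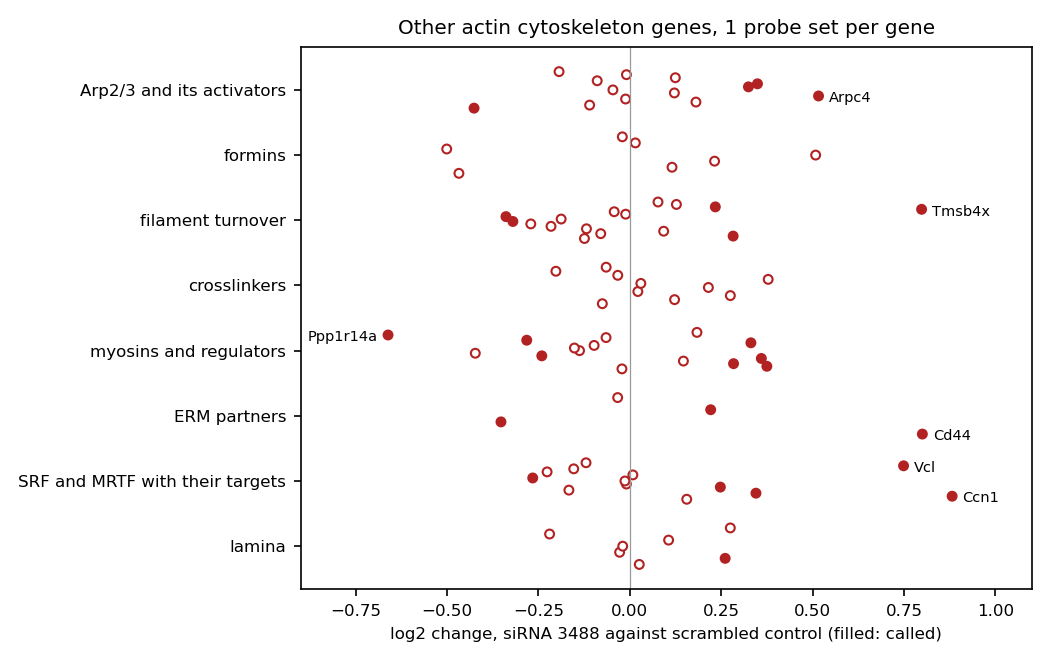
Log2 change with siRNA 3488 against the scrambled control for 85 of the 100 tested actin cytoskeleton genes that are not members, 1 point per gene in rows by function; filled points are called, and points are spread vertically within a row only for legibility. Filled points lie on both sides of 0, from Ppp1r14a (-0.66) to Ccn1 (0.88), and the formin and crosslinker rows hold open points only.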

How the data were processed

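Total RNA (5 ug) of 7 cultures was made into biotin-labelled cRNA, per the labels' protocols. The deposited values are linear intensity values, 1 signal per probe set and array, made by the authors with GCOS 1.4, per the submitters' processing notes; for the background, summary and scaling settings the sources are silent. The array means without the extremes lay close together, so the values were already scaled. Tests ran on the log2 of these signals, with 1 as the lowest value. Of 31042 probe sets other than the 57 controls, 18625 were tested with limma 3.58.1 in R 4.3.3 (lmFit, eBayes with an intensity trend, Benjamini-Hochberg adjustment). Comparisons of single siRNAs came from a fit of 3 groups, both siRNAs from a fit of 2. Errors of log2 changes are standard errors, and the 7 arrays limit the precision.

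The annotation named 1 gene for 20826 probe sets, several for 436 and none for 9780; 71 of 72 members were found by Entrez identifier in RefSeq's table of GRCr8 and 0 symbols changed. The brightest probe set of a gene is its first. Given by array are the members called in any comparison and 17 genes always given (Acta2, Actg2, Actb, Actg1, Tagln, Cnn1, Cnn2, Tpm1 to Tpm4, Myl9, Mylk, Myh9, Vim, Rhoa and Rhob). Among these, Actb had no probe set of its own, and Actg2 and Cnn1 lay below the filter and are given as ranges. Of the wider list, the 4 called genes each way with the lowest adjusted p are named. The members and lists were chosen with earlier results of these data known. The fits were tested on simulated data. Alternatives were other scalings, filters and offsets, no intensity trend, 1 probe set per gene, a replicate block, 100 neighbours in place of 500 and leaving out each array. The split at a log2 signal of 12 and the scalings of the control probe sets were added after seeing the data. An item of the gene lists, with its row of the plot by function, is not reported here.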

Additional observations from a re-analysis of the deposited data

Results flagged for a closer look

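For 9 member probe sets the log2 change with siRNA 3488 differed from that with siRNA 2600 in limma's test of the difference. The differences were 0.46 for Tpm2, 0.42 for Tpm1, 0.41 for Tagln2, 0.36 for Actg1, 0.46 for Rhob, 0.79 for Mylk, 0.26 for Cfl2, -0.93 for Tpm3 1370450_at and -0.95 for Myo1f. Cfl2, Mylk and Tpm3 1370450_at were not called against the control with either siRNA.

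The 3 beta-actin control probe sets lie outside the tested table. With siRNA 3488 they were above the control by 0.40 (3′ end), 0.31 (middle) and 0.25 (5′ end) on the log2 scale as deposited, by 0.50, 0.42 and 0.36 after median centring, and by -0.06, -0.13 and -0.11 after quantile normalization.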

How the results depend on the processing

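Of 407 values of called members under alternatives, 263 stayed called in the same direction, 141 were no longer called and 3 turned sign. Of 392 values of the always-given members where they were not called, 27 turned sign and 2 became called, Cnn2 with siRNA 2600 without replicate 1 and Tpm4 in the opposite direction. Over all 63 members and 4 comparisons, 41 of 3981 values not called in the report became called, 40 in the same direction and 1 in the opposite one, and 284 turned sign. The share of all probe sets called is given in brackets. With siRNA 3488 the 12 calls (15.6%) became 6 after quantile normalization (9.87%), 7 after cyclic loess (10.5%), 2 without the intensity trend (3.17%) and 4 to 14 when an array was left out (2.54% to 19.4%: 5 without siRNA 3488 replicate 2, 4 without control replicate 1, 5 without control replicate 2). The values that turned sign and were called before or after were those after quantile normalization of Ezr (-0.021), Actg1 (-0.093) and Tpm4 1371653_at (-0.20) with siRNA 3488, and of Actg1 between the siRNAs (-0.055). With siRNA 2600 the 2 calls (1.03%) became 0 without the filter (0.293%) and 1 with the upper 40% of probe sets (1.83%). They became 0 without the trend (0%) and 0 with the replicate block (0.360%). With the compared groups alone 1 was called (0.913%), and 0 when a control array was left out (0.134% to 0.199%). Between the siRNAs the 9 calls (6.01%) became 3 after quantile normalization (3.07%), 5 without the filter (1.48%) and 0 without the trend (0.0268%). They became 0 with the compared groups alone (0.156%) and 4 to 6 when a control array was left out (1.97% to 2.78%). For both siRNAs the 0 calls became 7 with the mean of the 2 effects, and 0 to 5 when an array was left out. The causes were not tested.

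Deviations from the group mean correlated at -0.05 to 0.16 for same-numbered arrays and at -0.19 to 0.19 for differently numbered ones. In a group of 2 arrays the deviations mirror each other, so these values cannot settle whether replicate numbers pair the samples. The main fits used no pairing. With the replicate block, 16 members were called with siRNA 3488 (13 higher, 3 lower; 14.6% of all), 10 between the siRNAs (8.38%) and 0 for both. Members above the median of the 100 nearest probe sets numbered 34 with siRNA 3488, 29 with siRNA 2600, 32 between the siRNAs and 32 for both. Adamts16 stayed without a call, at -0.31 to 1.05 when an array was left out. Signal limits the dim members: Actg2, Cnn1 and Cdh2 lay below the filter and were not tested.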
